A study of Mus musculus with 4 samples.

Results

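The genes of sterol synthesis, fatty acid synthesis and cholesterol efflux were followed in XCR1-deficient and wild-type mouse cDC1, the type 1 conventional dendritic cells that hand antigen of dead cells to CD8 T cells. XCR1 is the chemokine receptor by which they sense XCL1. The list held 37 genes, chosen by name and matched to the annotated symbols of the array. Of these, 33 had a probe set of their own (34 probe sets, among 17223 named genes), 2 (Idi1 and Scd2) appeared only on probe sets that also name another gene and were not used, and 2 (Acat2 and Nr1h2) were not matched. All 33 had log2 signals above 5.43, the median of all values, on each of the 4 arrays, and 11056 genes in all passed this limit on at least 1 array. XCR1-deficient (KO) cells were given XCL1 (recombinant, 100 ng/ml) on top of LPS (lipopolysaccharide from bacterial walls, 100 ng/ml), or LPS alone, and wild-type (WT) cells the same 2 treatments. Every group thus carried LPS, and the mice were of the C57BL/6 strain, aged 10 weeks and labelled female. Each group had 1 array, which limits the precision: spread between replicates is unknown and no p-value is given. The labels do not say how the receptor was deleted or how the cells were isolated.

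Cells make cholesterol from acetyl-CoA through mevalonate, farnesyl diphosphate, squalene and lanosterol. When membrane sterol is low, SCAP escorts the SREBP transcription factors from the endoplasmic reticulum, where INSIG proteins hold them, and the cleaved SREBPs switch on the genes of this chain (mainly SREBP2) and of fatty acid synthesis (mainly SREBP1c). The liver X receptors (LXRs) answer to oxysterols, which accumulate when sterol is plentiful, and raise the exporters ABCA1 and ABCG1, the ubiquitin ligase MYLIP, which limits lipoprotein uptake, and, in mice, Srebf1 and Scd1 too. Sterol and LXR target genes are therefore known to move in opposite directions when the sterol supply changes, while fatty acid genes take input from both.

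The 4 arrays resembled each other, with correlations across genes from 0.983 to 0.993. The targeted gene, Xcr1, had signals of 5.54 with LPS and 5.11 with LPS and XCL1 in KO cells, against 6.42 and 7.19 in WT cells, which is the direction of the labels. Whether its probe set lies in the deleted stretch is not given in the sources used here. Of 12 cDC1 markers, 11 had a probe set of their own and 10 passed the limit, Itgae being the exception. The X-inactivation transcript Xist had signals of 4.64 and 4.57 in KO cells, against 7.95 and 7.91 in WT cells, and the Y-linked genes Eif2s3y, Uty and Kdm5d were above the limit on all 4 arrays, between 7.01 and 8.89, although the labels give females. Whether the Y-linked probe sets also read X-linked relatives was not tested. The sex of the cells, and the array name prefix that is shared within each genotype and differs between them, cannot be told apart from genotype. In such bulk samples fewer cells of a type and less RNA per cell cannot be told apart either.

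Promoter windows of 300 bases (250 before to 50 after the start, RefSeq, GRCm38.p6) were found for 26 of the 33 genes, and 5 are shown: those of Mvk, Hsd17b7 and Lss, sterol genes with lower signals in KO cells in both pairs, of Hmgcs1, which was not lower, and of the exporter Abca1. No window was found for Scd1, Fads1, Sqle, Fdps, Fdft1, Abcg1 and Stard4, so these genes were not searched. The CCAAT box (CCAAT on either strand), the site of NF-Y, a known partner of SREBPs, was in the window of 13 of 13 sterol synthesis genes, 4 of 5 genes of SREBP control, 2 of 5 fatty acid genes (Acly and Fasn) and 1 of 3 LXR genes (Mylip). Of all 27025 genes with a window, 41.1% held it, and 41.9% of the 8925 among the genes past the limit. A gene counted if any of its windows held the motif, and the 26 genes had 35 windows. By window the CCAAT box was in 13 of 16 for sterol synthesis and 5 of 10 for SREBP control. It was in 2 of 5 windows of fatty acid genes and 1 of 4 of LXR genes, against 36.8% of windows of genes past the limit. The motif TCACNCCAC, a form of the sterol regulatory element, was in the Hmgcs1 window alone among the 26 genes. It was in 1.44% of all genes and 1.48% of those past the limit. The E-box CACGTG was in 6 of the 26, in 8.09% of all genes and in 11.3% of those past the limit. An exact direct repeat of AGGTCA spaced by any 4 bases, a strict form of the LXR element, was in none of the 26. It was in 0 of the 8925 genes past the limit and in 0.0148% of all genes. A match so rare could not set the 26 apart from other genes, and looser repeats were not searched. The motifs were searched on both strands and chosen with the windows at hand, a match is a description and not a site in use, and no matches overlap in the windows shown. Capitals mark these motifs. Hmgcs1 (chr13:119690101-119690400, plus strand) holds 4 CCAAT boxes and the sterol element, and Mvk (chr5:114444019-114444318, plus strand) 5 CCAAT boxes. Hsd17b7 (chr1:169969156-169969455, minus strand) holds 3 CCAAT boxes and an E-box, and Lss (chr10:76531355-76531654, plus strand) 1 CCAAT box. Abca1 (chr4:53159846-53160145, minus strand) holds an E-box and no exact match to the other motifs, which does not tell whether it holds a looser form of them.
Hmgcs1: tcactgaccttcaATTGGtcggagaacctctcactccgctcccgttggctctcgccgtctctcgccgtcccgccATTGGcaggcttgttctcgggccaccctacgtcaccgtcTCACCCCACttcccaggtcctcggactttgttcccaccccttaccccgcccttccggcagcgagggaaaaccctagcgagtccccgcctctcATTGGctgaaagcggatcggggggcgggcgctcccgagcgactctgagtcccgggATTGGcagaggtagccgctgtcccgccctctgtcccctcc
Mvk: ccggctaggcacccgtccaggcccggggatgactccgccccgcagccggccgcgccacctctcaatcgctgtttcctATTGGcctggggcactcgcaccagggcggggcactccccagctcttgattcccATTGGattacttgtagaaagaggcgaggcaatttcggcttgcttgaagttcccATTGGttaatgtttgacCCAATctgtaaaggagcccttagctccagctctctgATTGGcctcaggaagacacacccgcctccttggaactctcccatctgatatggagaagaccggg
Hsd17b7: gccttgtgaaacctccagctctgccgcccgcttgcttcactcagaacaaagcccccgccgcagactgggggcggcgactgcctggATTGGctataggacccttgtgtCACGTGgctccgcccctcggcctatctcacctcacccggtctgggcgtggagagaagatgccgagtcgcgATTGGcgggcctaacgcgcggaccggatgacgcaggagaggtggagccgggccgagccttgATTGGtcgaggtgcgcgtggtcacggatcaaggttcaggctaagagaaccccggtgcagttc
Lss: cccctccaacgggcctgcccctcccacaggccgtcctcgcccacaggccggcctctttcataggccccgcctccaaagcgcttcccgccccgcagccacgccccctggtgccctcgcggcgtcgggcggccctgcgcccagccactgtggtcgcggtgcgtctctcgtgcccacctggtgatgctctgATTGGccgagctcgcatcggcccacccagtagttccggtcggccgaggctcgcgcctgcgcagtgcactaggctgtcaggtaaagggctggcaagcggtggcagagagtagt
Abca1: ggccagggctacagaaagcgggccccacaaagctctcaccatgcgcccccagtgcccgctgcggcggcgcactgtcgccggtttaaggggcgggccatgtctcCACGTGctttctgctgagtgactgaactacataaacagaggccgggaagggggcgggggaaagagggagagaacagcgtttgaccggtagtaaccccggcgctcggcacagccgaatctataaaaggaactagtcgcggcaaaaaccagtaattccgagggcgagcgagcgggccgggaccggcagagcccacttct

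The first comparison set KO against WT cells under the same treatment, in 2 pairs that share no array. Most sterol and fatty acid genes had slightly lower signals in KO cells, and LXR genes did not lie to one side. KO signals were below WT signals for 30 of the 33 genes with LPS and for 28 with LPS and XCL1, with median log2 differences of -0.27 and -0.19. Over all 11056 genes, 60.1% and 56.8% were below 0, with medians of -0.052 and -0.039. Of the 5150 genes with a mean signal of 6 to 8, the range of most of the 33, 67.9% and 64.7% were below 0. In both pairs, 28 of the 33 genes were below 0, where 42.3% of all genes were. Few of the differences were as large as 1.5-fold (0.58 on the log2 scale). With LPS, 2 of the 33 genes were lower at 1.5-fold, where 0.995% of all genes were, and 0 were higher, against 1.00% of all genes. With LPS and XCL1 the counts were 2 lower, against 1.79% of all genes, and 0 higher, against 1.66%. Only Scd1 was past 1.5-fold in both pairs.

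Both KO arrays lay below both WT arrays for 21 of the 33 genes, where this held for 33.2% of all genes, and both lay above for 0, against 18.9% of all genes. The 21 comprised 13 of 16 sterol synthesis genes, 4 of 7 fatty acid genes, 2 of 5 genes of SREBP control, the sterol carrier gene Stard4, and 1 of 4 LXR genes. The array medians over genes were not equal, and centring each array on them added 0.10 and 0.10 to the genotype differences. After centring, 27 and 24 of the 33 genes were still below 0, while 4416 and 4281 of the 11056 genes were, so the centring itself turned the balance of all genes upward. Both KO arrays then lay below both WT arrays for 16 of the 33 genes, against 17.8% of all genes, and 23 were below 0 in both pairs, against 23.5%. Across the 33 genes the differences of the pairs had a Pearson's r of 0.681 and a Spearman's rho of 0.553, against 0.526 and 0.481 across all genes. Genes share arrays and are not independent replicates.

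**Figure D1:**
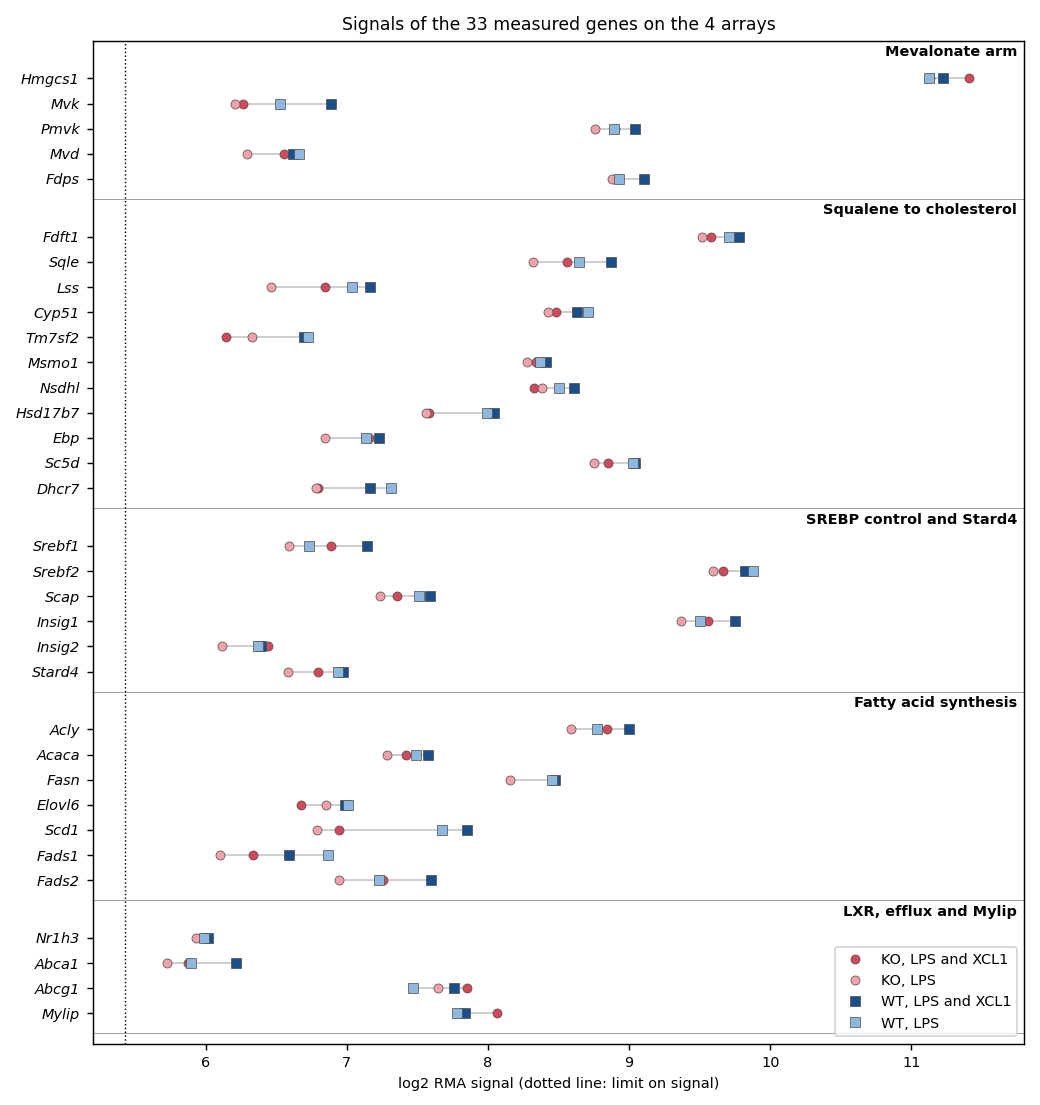
Log2 RMA signals of the 33 measured genes on the 4 arrays, by group, with KO arrays as circles, WT arrays as squares and a dotted line at the limit on signal (5.43). The KO circles lie left of the WT squares for 21 genes, with the widest gap for Scd1, and points of some genes cover each other.

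The early enzymes of the chain differed from each other. Hmgcs1, the cytosolic HMG-CoA synthase that opens the mevalonate route, had signals of 11.13 in KO cells with LPS against 11.13 in WT cells, and 11.41 in KO cells with LPS and XCL1 against 11.23 in WT cells. It was the one sterol synthesis gene not lower in KO cells, with differences of 0.0045 and 0.18. Mvk, mevalonate kinase, gave 6.21 in KO cells against 6.53 in WT cells with LPS, and 6.26 in KO cells against 6.89 in WT cells with LPS and XCL1. Both KO arrays were thus below both WT arrays, and the gene was 1.25-fold lower with LPS and 1.54-fold lower with LPS and XCL1. The decarboxylase gene Mvd differed by -0.37 with LPS and by -0.060 with LPS and XCL1. Pmvk, the next kinase after mevalonate kinase, differed by -0.13 and -0.14, and Fdps, which makes farnesyl diphosphate, by -0.044 and -0.20. The 5 mevalonate genes had medians of -0.13 and -0.14, with 4 of 5 below 0 in each pair, where 60.1% and 56.8% of all genes were.

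All 11 genes from squalene to cholesterol were lower in KO cells in both pairs (medians -0.29 and -0.29), where 42.3% of all genes were. Both KO arrays lay below both WT arrays for 10 of them, all but Ebp, where this held for 33.2% of all genes. None of the 11 reached 1.5-fold. With centring 10 and 9 of the 11 were below 0 (medians -0.19 and -0.18), where 4416 and 4281 of the 11056 genes were. Sqle, squalene epoxidase, a rate-limiting step, had signals of 8.32 in KO cells against 8.65 in WT cells with LPS and 8.56 in KO cells against 8.87 in WT cells with LPS and XCL1. Lss, which closes squalene epoxide into lanosterol, gave 6.46 in KO cells against 7.03 in WT cells, and 6.85 in KO cells against 7.16 in WT cells with XCL1. Its difference with LPS (-0.57) was just inside the threshold, and that with LPS and XCL1 was -0.32.

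The sterol reductase gene Tm7sf2 had signals of 6.33 in KO cells against 6.72 in WT cells with LPS, and 6.14 in KO cells against 6.69 in WT cells with LPS and XCL1. Hsd17b7, the ketosterol reductase of the demethylation complex, gave 7.56 in KO cells against 7.99 in WT cells, and 7.58 in KO cells against 8.04 in WT cells with XCL1. The KO and WT values of Hsd17b7 each stayed within 0.050 between treatments while the genotypes were 0.41 apart at their closest. Dhcr7, which makes cholesterol from its immediate precursor, gave 6.78 in KO cells against 7.31 in WT cells, and 6.80 in KO cells against 7.17 in WT cells with XCL1. Differences of Sqle, Lss, Tm7sf2, Hsd17b7, Dhcr7, Mvk and Scd1 were at -0.3 or below in both pairs, 7 of the 33 genes, where 4.40% of all genes were. At 0.3 or above in both there were 0, against 2.96% of all genes. The count at -0.3 depended on the scaling: after centring Hsd17b7 and Scd1 met it, 2 of 33 against 1.56% of all genes, and after cyclic loess Tm7sf2, Hsd17b7, Dhcr7 and Scd1, 4 of 33 against 3.24%.

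Other enzymes of the late chain differed less. Squalene synthase (Fdft1) differed by -0.19 and -0.19, the lanosterol demethylase Cyp51 by -0.29 and -0.15, and the sterol desaturase Sc5d by -0.27 and -0.19. The methylsterol oxidase Msmo1 was nearest to 0, at -0.095 and -0.071. Nsdhl and Ebp, a sterol dehydrogenase and a sterol isomerase, lie on the X chromosome, and they differed by -0.12 and -0.29 and by -0.29 and -0.069. Stard4, a sterol carrier under SREBP control, differed by -0.36 and -0.18.

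Among the genes that control SREBP, 5 of 5 were below 0 with LPS (median -0.25) and 4 of 5 with LPS and XCL1 (median -0.19). Of all genes, 60.1% and 56.8% were below 0. Srebf2, the factor of the sterol genes, had signals of 9.59 in KO cells against 9.88 in WT cells with LPS, and 9.66 in KO cells against 9.82 in WT cells with LPS and XCL1, so both KO arrays were the lower ones, with differences of -0.28 and -0.16. Its escort Scap differed by -0.28 and -0.23, but a second, dimmer probe set of Scap gave 0.24 and 0.046. Srebf1 differed by -0.14 and -0.25, with overlapping arrays. Insig1, itself a sensitive SREBP target, differed by -0.13 and -0.19, and Insig2 by -0.25 and 0.045. No gene of this group was past 1.5-fold.

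Scd1 and Fads1, both desaturases, gave the largest differences of the fatty acid group with LPS. Scd1, which places the first double bond in saturated fatty acids and is both an SREBP1 and an LXR target, had signals of 6.79 in KO cells against 7.67 in WT cells with LPS, and 6.94 in KO cells against 7.85 in WT cells with LPS and XCL1. The genotypes were 0.73 apart at their closest, the widest gap among the 33 genes. The gene was 1.85-fold lower with LPS and 1.88-fold lower with LPS and XCL1, and ranked 14 and 21 from the lowest of 11056 genes. Fads1, a desaturase of polyunsaturated fatty acids, gave 6.10 in KO cells against 6.87 in WT cells with LPS, and 6.34 in KO cells against 6.59 in WT cells with LPS and XCL1. Both KO arrays were again the lower ones, but the gene was 1.70-fold lower with LPS and 1.19-fold lower with LPS and XCL1. Its partner desaturase Fads2 differed by -0.28 and -0.34.

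All 7 fatty acid genes were below 0 in both pairs (medians -0.28 and -0.25), where 42.3% of all genes were. Acly, which supplies cytosolic acetyl-CoA, had signals of 8.59 in KO cells against 8.78 in WT cells, and 8.84 in KO cells against 8.999 in WT cells with XCL1, and its KO and WT arrays overlapped. Acaca, the carboxylase that commits acetyl-CoA to fatty acids, differed by -0.21 and -0.15, and the elongase Elovl6 by -0.16 and -0.31. Fasn, the fatty acid synthase, differed by -0.29 with LPS and by -0.0055 with LPS and XCL1. The difference of Scd1 was thus larger in size than those of the synthase and the carboxylase of the same route.

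The 4 genes of the LXR group were not lower as a group. Srebf1 (-0.14 and -0.25) and Scd1 (-0.89 and -0.91), also known LXR targets, were counted in other groups and were lower in KO cells. Abcg1, which exports cholesterol to lipoproteins, had signals of 7.65 in KO cells against 7.47 in WT cells with LPS, and 7.85 in KO cells against 7.76 in WT cells with LPS and XCL1. Mylip, the ligase that limits lipoprotein uptake, gave 7.81 in KO cells against 7.78 in WT cells and, with XCL1, 8.07 in KO cells against 7.84 in WT cells. Both were slightly above WT in each pair, with overlapping arrays. Abca1, the exporter that loads apolipoproteins, was the exception, with 5.72 in KO cells against 5.90 in WT cells and 5.88 in KO cells against 6.21 in WT cells with XCL1. Its difference was -0.17 with LPS and -0.34 with LPS and XCL1. Nr1h3, which encodes LXR-alpha, differed by -0.058 and 0.0052.

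Side by side, the medians of KO minus WT were -0.29 and -0.19 for 16 sterol synthesis genes, -0.28 and -0.25 for 7 fatty acid genes, and -0.018 and 0.051 for 4 LXR genes. With centring they were -0.19 and -0.090, -0.18 and -0.15, and 0.083 and 0.16, so the LXR median with LPS changed sign. The distance between groups within an array does not depend on such scaling. The mean log2 signal of sterol genes minus that of LXR genes was 0.27 lower in KO than in WT cells with LPS and 0.24 lower with LPS and XCL1. For fatty acid genes minus LXR genes it was 0.39 and 0.30 lower. The fatty acid mean includes Scd1 and Fads1, at -0.89 and -0.76 with LPS, beside the group median of -0.28. These distances rest on 4 LXR genes that do not behave alike, with Srebf1 and Scd1 counted in other groups, and on single arrays.

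**Figure D2:**
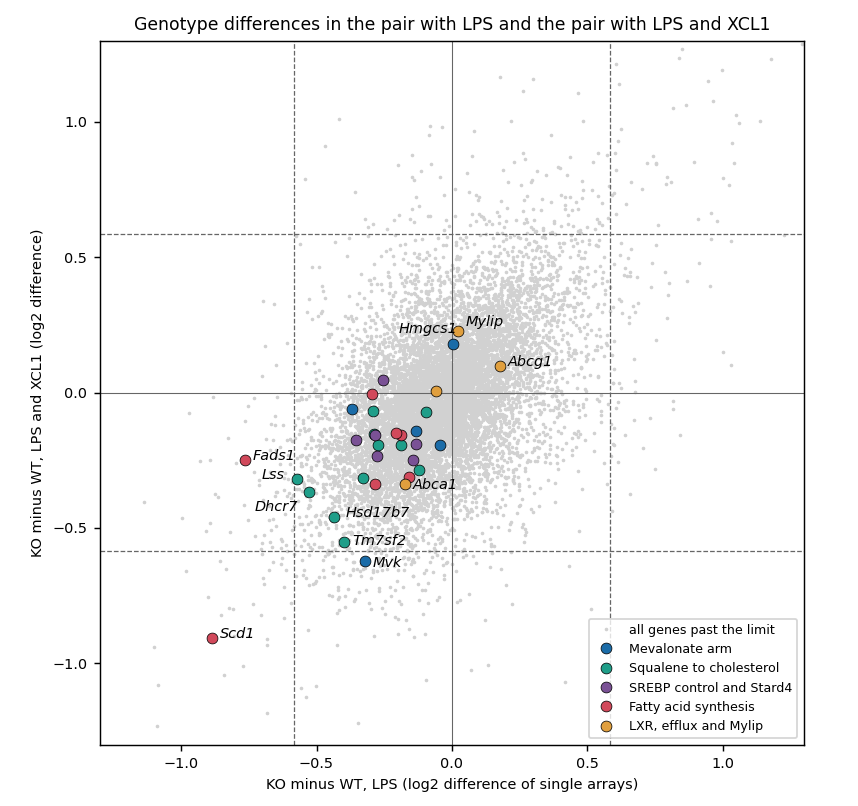
KO minus WT log2 differences with LPS (horizontal) and with LPS and XCL1 (vertical), with coloured points for the 33 genes by group, grey points for all genes past the limit and dashed lines at 1.5-fold. Scd1 lies past 1.5-fold on both axes, Fads1 and Mvk on 1 each, and Abcg1 and Mylip above 0 on both, and genes beyond the axes are not drawn.

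Markers of other cells and interferon genes also differed between the genotypes. Of all genes past the limit, 60.1% and 56.8% were lower in KO cells in the 2 pairs, and 39.8% and 43.2% were higher. The 10 measured B cell markers were all lower in KO cells in both pairs (medians -0.44 and -0.53), with mean log2 signals of 7.45 and 7.47 on the KO arrays and 7.97 and 8.04 on the WT arrays. Of 12 T cell markers, 11 and 10 were lower (medians -0.31 and -0.31), with means of 6.85 and 6.75 on the KO arrays and 7.13 and 7.11 on the WT arrays. Lymphocyte genes thus lay lower in KO cells, as most sterol and fatty acid genes did. Of the 11 measured cDC1 markers, 7 were lower in each pair, a share near that of all genes. Their medians were -0.13 and -0.15, or -0.078 and -0.095 over the 10 other than Xcr1. Of 9 measured macrophage markers, 4 and 2 were lower, with means of 7.04 and 7.15 on the KO arrays and 6.95 and 6.91 on the WT arrays. Other lists lay higher in KO cells. The 19 interferon-stimulated genes were all higher (medians 0.35 and 0.40), with means of 10.30 and 10.43 on the KO arrays and 9.93 and 9.96 on the WT arrays. All 5 measured erythroid markers were higher in KO cells in both pairs, with means of 6.27 and 6.21 on the KO arrays and 5.41 and 5.36 on the WT arrays, and only 1 of them (Slc4a1) was above the limit on every array. Of 10 measured neutrophil markers, 1 and 2 were lower, with means of 6.64 and 6.74 on the KO arrays and 6.36 and 6.37 on the WT arrays. No value is 0 on this scale, and the part of any of these genes in the sterol and fatty acid differences was not tested.

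The second comparison set LPS and XCL1 against LPS alone, in cells without and with the receptor. No gene of the 33 reached 1.5-fold in either. In KO cells 0 were higher, against 0.470% of all genes, and 0 lower, against 0.543%. In WT cells 0 were higher, against 0.226% of all genes, and 0 lower, against 0.335%. Most of the small differences were upward, with 30 of 33 genes above 0 in KO cells and 26 in WT cells (medians 0.15 and 0.078), where 6599 and 6445 of the 11056 genes were. In both genotypes 25 of the 33 genes were above 0, against 37.1% of all genes. Centring took away part of this, leaving 24 of 33 genes above 0 in KO cells, 17 in WT cells and 14 in both, where 19.3% of all genes were above 0 in both.

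Srebf1, the factor of the fatty acid genes, and Fads2 were the 2 genes at 0.3 or above in both genotypes, where 0.724% of all genes were. After centring or cyclic loess 0 of the 33 met this. Srebf1 had signals of 6.89 with LPS and XCL1 against 6.59 with LPS in KO cells, and 7.14 against 6.73 in WT cells. Its XCL1 differences were 0.30 in KO and 0.41 in WT cells, and Fads2 gave 0.31 in KO and 0.37 in WT cells. The SREBP targets Sqle, Acly and Insig1 were close between genotypes. Sqle differed by 0.24 in KO and 0.23 in WT cells, Acly by 0.25 in KO and 0.22 in WT cells, and Insig1 by 0.19 in KO and 0.25 in WT cells. All 4 LXR genes were above 0 in both genotypes, where 37.1% of all genes were. Their medians were 0.18 in KO and 0.17 in WT cells, or 0.11 and 0.10 with centring. After centring 4 of the LXR genes were above 0 in KO cells and 2 in WT cells, where 4837 and 4304 of the 11056 genes were. Of the exporters, Abcg1 differed by 0.21 in KO and 0.28 in WT cells, and Abca1 by 0.15 in KO and 0.31 in WT cells. Medians for sterol synthesis were 0.064 in KO and 0.078 in WT cells, or -0.0021 and 0.0080 with centring, which changed the sign in KO. For fatty acid synthesis they were 0.24 in KO and 0.082 in WT cells, or 0.17 and 0.012 with centring.

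Some genes differed with XCL1 in one genotype more than in the other. Lss was 0.38 higher in KO and 0.13 in WT cells, Fasn 0.31 in KO and 0.025 in WT cells, Insig2 0.33 in KO and 0.027 in WT cells, and Mvd differed by 0.26 in KO and -0.048 in WT cells. Mvk went the other way, with 0.060 in KO and 0.36 in WT cells. Fads1 gave 0.24 in KO and -0.28 in WT cells. The WT effect minus the KO effect stayed within 1.5-fold for all 33 genes, with Fads1 the farthest from 0 (-0.51), where 1.38% of all genes were higher and 1.52% lower by this measure. It combines 4 single arrays and was not tested.

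**Figure D3:**
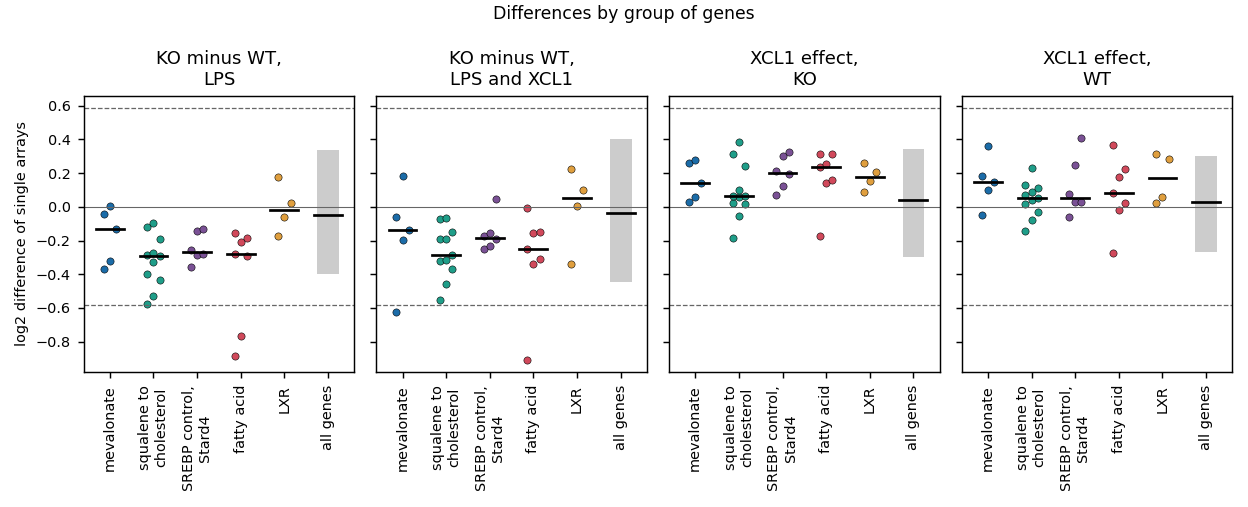
Log2 differences of single arrays by group of genes in the 4 comparisons, each point a gene, with black lines at medians, grey bars for the 5th to 95th percentile of all 11056 genes and dashed lines at 1.5-fold. Groups other than LXR have medians below that of all genes in both KO minus WT panels, and all group medians of these uncentred values lie above 0 in both XCL1 panels.

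**Figure D4:**
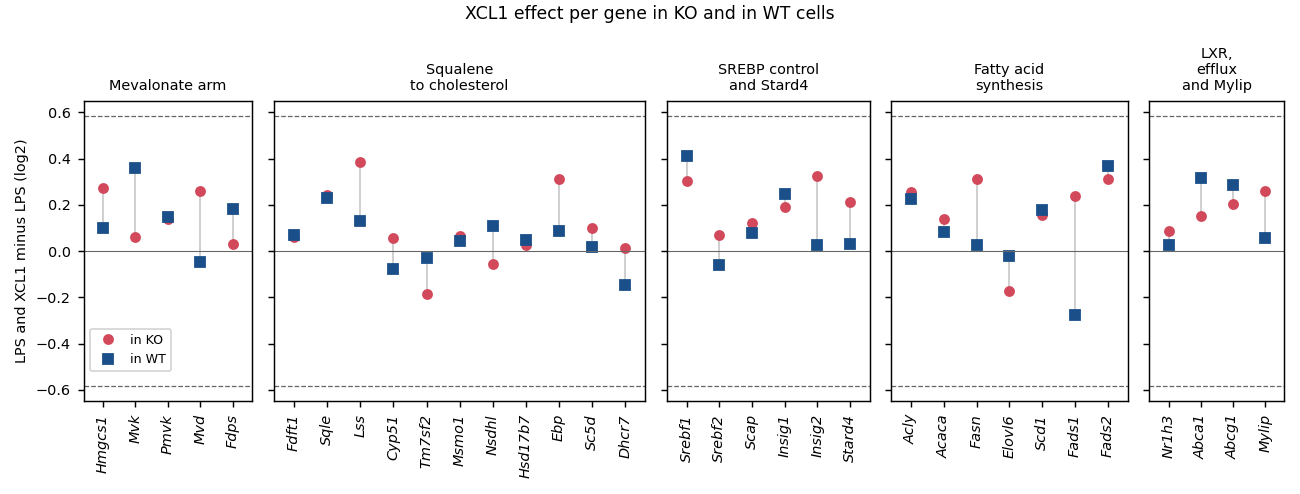
XCL1 effect (LPS and XCL1 minus LPS, log2) for each of the 33 genes in KO cells (circles) and WT cells (squares), with dashed lines at 1.5-fold. No gene reaches a dashed line, Srebf1 and Fads2 are well above 0 in both genotypes, and Fads1 lies on opposite sides of 0.

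Other genes of these pathways were counted in the same way. A further list held 53 genes, of which 46 had a probe set of their own and 37 passed the limit. Other sterol genes were lower in KO cells for 6 of 7 in each pair, where 60.1% and 56.8% of all genes were (medians -0.18 and -0.20), other fatty acid genes for 8 and 10 of 11 (-0.11 and -0.15), other LXR-linked genes for 4 of 7 in each (-0.030 and -0.080), and genes of sterol and lipid handling for 7 and 8 of 12 (-0.069 and -0.097). Cd36, a fatty acid and lipoprotein receptor, was the only one of the 37 at 1.5-fold in a genotype pair, with LPS and XCL1, where 1.79% of all genes were lower. It had signals of 7.83 in KO cells against 8.40 in WT cells with LPS, and 7.79 in KO cells against 8.47 in WT cells with LPS and XCL1, 1.49-fold and 1.60-fold lower. Lipa, the lysosomal lipase that frees cholesterol from taken-up lipoproteins, gave 9.15 in KO cells against 9.70 in WT cells and, with XCL1, 9.39 in KO cells against 9.88 in WT cells, and both KO arrays were the lower ones. Ch25h, which makes an oxysterol and is known as an interferon-stimulated gene, differed between genotypes by 0.12 and -0.16, and with XCL1 by 0.16 in KO and 0.43 in WT cells. None of the 37 reached 1.5-fold with XCL1, where 1.01% of all genes did in KO cells and 0.561% in WT cells.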

How the data were processed

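The authors deposited 1 log2 signal for each probe set and array, summarised over genes by RMA on mouse MoGene 2.0 ST arrays, per the labels' descriptions. RMA equalises the arrays, so a shift of most genes cannot be seen, and the software is not given in the sources used here. Genes were named by the platform annotation: 23521 of 41345 probe sets had 1 symbol, 1814 several (left out) and 16010 were unnamed here. The brightest probe set stood for a gene, and the gene total leaves out olfactory receptors, antigen receptor segments, small RNAs and predicted genes. Log2 differences between single arrays were computed with Python 3.11.15 (numpy 2.4.6, pandas 2.3.3), a call being 1.5-fold or more, with no test. The SD per probe set, from 442 genes with several, was 0.174 to 0.229.

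The members, lists, motifs and thresholds were chosen with earlier results of these data known. Genes were named with values on every array where they passed 1.5-fold in a genotype pair, lay at 0.3 or more in size with the same sign in both, or had the highest mean signal of the sterol, fatty acid or LXR group, and genes from the other lists where they passed 1.5-fold in any comparison or met the second condition, with Ch25h. Values on every array of Srebf1, Srebf2, Abca1 and Abcg1 were chosen after they were seen. Alternatives were cyclic loess (limma 3.58.1 in R 4.3.3, span 0.7, 3 iterations), median centring, calls at 2-fold, other limits (none, or the 75th percentile, 6.91), dim signals raised to the limit, the mean of a gene's probe sets, and all named genes as background. The counts over both pairs or both genotypes under these alternatives, the markers below the limit, and the cDC1 markers without Xcr1 were added after seeing the data.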

Additional observations from a re-analysis of the deposited data

Results flagged for a closer look

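Fads1 was singled out because its XCL1 difference had opposite signs in the genotypes, 0.24 in KO and -0.28 in WT cells, each at least 0.15 in size. The difference between the genotypes was not tested. Probe sets of the same gene on the same arrays had an SD of 0.209 in KO and 0.174 in WT for this contrast, which is a technical spread and not one between samples. No other gene of the 33 met this condition for XCL1, and none did for the genotype difference between treatments.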

How the results depend on the processing

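All 33 genes passed the limit on each array, so dropping the limit or raising dim signals to it could not change their values. The counts of genes higher or lower at 1.5-fold were within 1.5 times of their values in 65 recalculations and moved further in 5. Most of these counts were 0 with the main settings and stayed 0. Only the counts of genes lower in KO cells were not 0, and all 5 that moved were among them. With a 2-fold threshold 0 genes were lower in KO cells in either pair. With the stricter limit on signal, which Fads1 and Mvk did not pass, 1 gene was lower in each pair, and with median centring 1 was lower with LPS and XCL1, where Mvk moved to -0.52. Of counts over both pairs or both genotypes (added after seeing the data), 25 recalculations were within 1.5 times and 5 moved further. Genes at -0.3 or below in both pairs numbered 4 with cyclic loess and 2 with centring, genes with an XCL1 difference at 0.3 or above in both genotypes 0 with either, and those above 0 in both 14 with centring. Scd1 stayed past 1.5-fold with every limit, cyclic loess (-0.82 and -0.86), centring (-0.79 and -0.80) and the other alternatives except the 2-fold threshold. Group medians moved by less than the SD per probe set and kept their sign in 68 recalculations, and 4 changed sign. This SD (0.174 to 0.229) is wide beside many of the medians, so a median could nearly vanish and still count as kept. With centring the XCL1 medians in WT cells went from 0.078 to 0.0080 for sterol and from 0.082 to 0.012 for fatty acid synthesis. The sterol median of KO minus WT with LPS and XCL1 went from -0.19 to -0.090. Dropping the limit, raising dim signals and averaging probe sets could not move the group medians, because each gene in the groups has 1 probe set past the limit. All 4 sign changes came from the stricter limit, cyclic loess or centring. The LXR median of KO minus WT with LPS changed sign, to 0.099 with the stricter limit, 0.023 with cyclic loess and 0.083 with centring, and the sterol median for XCL1 in KO cells changed to -0.0021 with centring. Keeping predicted genes and small RNAs left the share of all genes called within 1.5 times in the 5 comparisons. No paired analysis was possible because each group has 1 array and the labels number no replicates. Small differences of dim genes such as Nr1h3 and Abca1 are limited by signals close to the limit.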
